A study of Mus musculus with 72 samples.

Results

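The ventricular identity genes of the mouse heart, 6 in number, were followed through all 72 RNA-seq libraries of adult mouse hearts. They are Myl2, Myl3, Irx3, Irx4, Irx5 and Hey2, they were listed by name, and they were found in the count table by their Entrez identifiers, so that the members are 6 of 24237 genes. The 72 libraries came from 4 groups of C57BL/6J mice, 3 chambers (right atrium, left atrium and ventricles) and both sexes, with 3 libraries for each combination. Naïve mice were Ahr+/+ and served as the reference. Ahr-/- mice lacked the aryl hydrocarbon receptor (AHR), a ligand-activated transcription factor, in every cell. They were bred from Ahr-/- parents, so that their dams lacked the receptor too, and they were unexposed. Low- and high-dose TCDD-exposed mice were Ahr+/+ offspring of dams given 0.1 or 1 μg/kg of TCDD (a dioxin and potent AHR ligand) by oral gavage on 3 days of gestation, and they were not exposed again. By the account of the study, the other Ahr+/+ dams were given corn oil vehicle by gavage, and Ahr-/- dams were left untreated. Ahr-/- and naïve mice thus also differed in the gavage of their dams. Hearts were taken at about 10 months of age by the account of the study, and the sample labels give 9 months, later gavage days and TCDD as the treatment of all 72 samples. The 3 chambers of a heart were dissected apart, and the labels do not tell which libraries share a heart. TCDD or vehicle was given to dams, and the sources used here do not tell which mice shared a dam. The labels call the material cardiomyocytes, but markers of endothelium, fibroblasts and blood were present in every library, and the libraries are described here as tissue.

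The contractile unit of the heart is built around myosin, whose heavy chains each carry an essential and a regulatory light chain. Atria and ventricles use different light chain genes. Myl2 encodes the regulatory light chain of the ventricles and Myl3 their essential light chain, while Myl7 and Myl4 are the atrial counterparts. Iroquois genes encode homeobox transcription factors. Irx4 marks the ventricles from early in development, Irx3 acts in the ventricular conduction system, and Irx5 helps to set the gradient of repolarization across the ventricular wall. Hey2 encodes a basic helix-loop-helix repressor downstream of Notch that is used in the compact wall of the embryonic ventricle. The question addressed was how high each of these genes stood in each chamber, and whether absence of AHR or TCDD exposure during gestation was followed by other levels in the adult heart.

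Coordinates are of build GRCm38.p6 (mm10). Myl2 (Entrez 17906) spans chr5:122092724-122113473, Myl3 (17897) spans chr9:110763678-110769802, Irx4 (50916) spans chr13:73259589-73269622 and Hey2 (15214) spans chr10:30832359-30842783. Irx3 (16373) at chr8:91798511-91801654 and Irx5 (54352) at chr8:92357796-92361456 belong to the same cluster. The reads were 50 bases long and were counted on coding regions, so that a stretch of 50 coding bases shared by 2 genes does not tell them apart. How reads of shared stretches were counted is not given in the sources used here, and they may be in the counts of both genes. Of 1517 stretches of 50 coding bases in Irx3, 115 also occur in Irx3os, Irx5 or Irx6, and of 1403 in Irx5, 17 also occur in Irx2 or Irx3. Myl2, Myl3, Irx4 and Hey2 have 0 shared stretches. Irx3os is antisense to Irx3, and the handling of strand is not given in the sources used here, so that the Irx3 counts may include reads of that transcript. The following 50 coding bases, from transcripts of the GENCODE M21 annotation, show a stretch that is the same in Irx3 and Irx5, and capitals mark where Irx4 differs from them.
Irx3: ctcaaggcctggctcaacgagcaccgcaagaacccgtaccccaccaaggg
Irx5: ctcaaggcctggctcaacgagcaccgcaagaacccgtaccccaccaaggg
Irx4: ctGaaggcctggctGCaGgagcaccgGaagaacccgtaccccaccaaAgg
The stretch begins at coding base 433 of Irx3, 379 of Irx5 and 472 of Irx4, and Irx4 differs at 6 of its 50 bases. A read of this stretch could not tell Irx3 from Irx5, whereas it could tell either from Irx4.

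Promoter sequence was available from RefSeq (GRCm38.p6) for 5 of the 6 genes, and it was not available here for Irx5. The 250 bases before each annotated start were searched on both strands for GCGTG, the core of the AHR response element, and for CATTCC, the M-CAT element of TEAD factors in muscle genes. GCGTG occurred in 28.2% of 32851 RefSeq promoters and CATTCC in 12.6% of them. The 3 sequences below are shown because they belong to Myl3 and Irx4, the 2 genes called in high-dose female ventricles (Irx4 not in every fit), and to the gene with most GCGTG matches. They end before the first annotated coding transcript, and capitals mark the matches.
Myl3, chr9:110763428-110763645, + strand: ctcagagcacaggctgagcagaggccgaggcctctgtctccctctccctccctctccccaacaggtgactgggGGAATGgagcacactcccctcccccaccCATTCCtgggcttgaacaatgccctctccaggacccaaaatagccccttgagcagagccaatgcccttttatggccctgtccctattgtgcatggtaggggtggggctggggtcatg
Irx4, chr13:73260247-73260478, + strand: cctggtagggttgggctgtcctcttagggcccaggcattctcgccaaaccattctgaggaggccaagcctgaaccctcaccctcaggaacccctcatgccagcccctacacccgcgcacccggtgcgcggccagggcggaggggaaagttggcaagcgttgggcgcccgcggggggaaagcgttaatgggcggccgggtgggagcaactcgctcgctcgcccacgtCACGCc
Hey2, chr10:30842802-30843033, - strand: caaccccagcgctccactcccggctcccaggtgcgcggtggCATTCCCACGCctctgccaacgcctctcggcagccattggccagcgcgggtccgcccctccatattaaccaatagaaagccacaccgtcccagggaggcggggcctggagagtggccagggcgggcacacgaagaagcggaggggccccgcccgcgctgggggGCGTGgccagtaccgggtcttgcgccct
The Myl3 stretch holds 2 CATTCC matches and 0 GCGTG matches. The Irx4 stretch, which lies inside the span given above because RefSeq lists a further start upstream, holds 1 GCGTG match. The Hey2 stretch holds 2 GCGTG matches and 1 CATTCC match, which directly adjoins a GCGTG match on the other strand, and its full 250 bases hold 3 GCGTG matches. In the Irx3 promoter and in the 2 Myl2 windows neither of these motifs was found. A match is a description of the letters and not of binding.

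Library totals ranged from 11873417 to 28789382 counts with a median of 19231739, and 3 counts, taken as the limit that a count of 0 allows, correspond to 0.253 CPM (counts scaled to a library total of 1000000) in the smallest and 0.104 CPM in the largest library. Ahr itself was at 8.59 to 30.8 CPM in the 18 naïve libraries (median 14.2) and at 2.00 to 9.23 CPM in the 18 Ahr-/- libraries (median 5.05). The chamber labels were checked with Myl4, the atrial essential light chain, at a level of 200 CPM, and the sex labels with Xist against 4 genes of the Y chromosome. Of the 72 libraries, 17 read against a label: 13 against the chamber (8 labelled atrium, 5 labelled ventricles) and 8 against the sex, 4 of them against both. Libraries numbered 49 to 72 held 12 of the 17. Among those, in each of the 4 groups, the library labelled female right atrium read male, the library labelled male left atrium had 2.21 to 4.57 CPM of Myl4, and the library labelled male ventricles read female and had 704 to 3533 CPM of Myl4. All 12 libraries labelled female ventricles read as labelled at this limit, although 1 of the 3 naïve ones, library 35, had 193 CPM of Myl4 against 3.14 and 4.23 CPM in the others. Each result below is given with all libraries as labelled and, where it touches the result, with the 55 that read as labelled (18 right atrium, 18 left atrium, 19 ventricles). Because Myl4 and the 6 genes ran in opposite directions, leaving libraries out by Myl4 widens the chamber differences by construction. It can also narrow the ventricle ranges, and those values are descriptions.

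In ventricles the light chain genes Myl2 and Myl3 were the most abundant members, the Iroquois genes stood far lower and Hey2 was lowest. Over the 19 ventricle libraries that read as labelled, Myl2 lay between 2734 and 10905 CPM with a median of 4236 CPM. Myl3 lay between 1225 and 5287 CPM (median 3299 CPM). The highest Myl2 and Myl3 libraries were the same, a low-dose female.

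Among the Iroquois genes in these 19 libraries, Irx4 lay between 38.3 and 66.4 CPM (median 55.7) and Irx3 between 34.9 and 69.5 CPM (median 50.3). Irx5 was lower, between 9.37 and 19.4 CPM (median 13.7). Hey2 lay between 1.69 and 5.82 CPM (median 3.48). Within this set, Irx4 was the steadiest of the 6, with its highest ventricle library 1.73-fold above its lowest, against 1.99-fold for Irx3, 2.07-fold for Irx5, 3.45-fold for Hey2, 3.99-fold for Myl2 and 4.32-fold for Myl3. Over all 24 ventricle libraries as labelled, Irx4 was not the steadiest. The log2 of highest over lowest was then 2.07 for Irx4 and 1.85 for Hey2.

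Levels between genes were compared per kilobase of coding sequence. On this scale the ventricle medians were 5390 CPM per kb for Myl3, 5191 for Myl2, 36.1 for Irx4, 32.1 for Irx3, 8.80 for Irx5 and 3.42 for Hey2. The ranges of Myl2 and Myl3 overlapped, as did those of Irx3 and Irx4, so that the order within these pairs was within the spread of the libraries. The order of Myl2 and Myl3 also depended on the transcript: with the main coding transcript of Myl2 (498 bases) in place of all its coding bases (816), its median was 8505 CPM per kb. Irx5 and Hey2 did not overlap with each other or with the higher 4 genes.

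**Figure D1:**
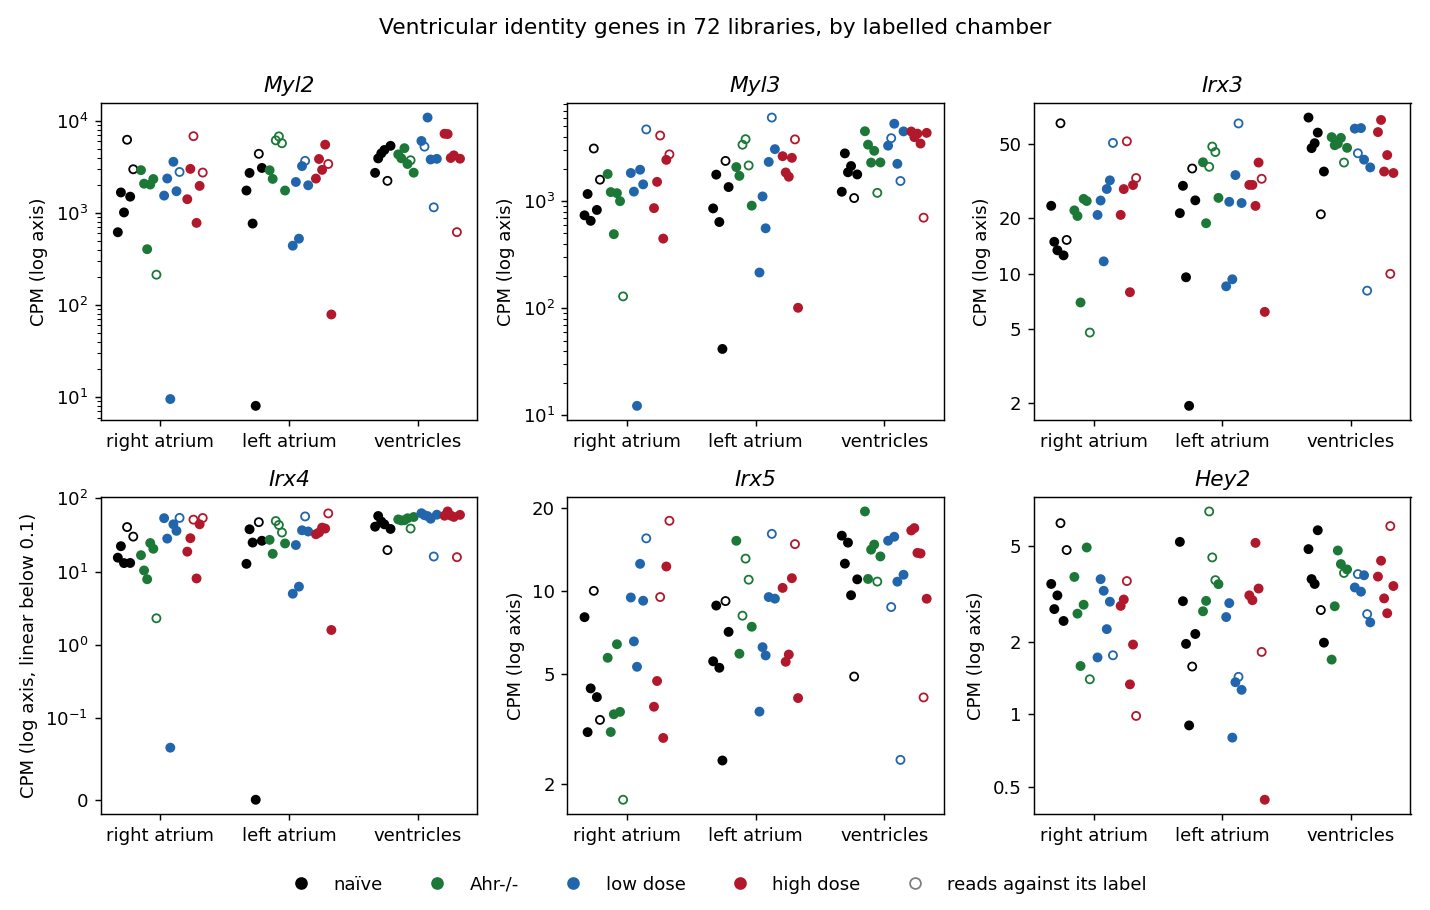
Level of each of the 6 genes in CPM (log axis, for Irx4 linear below 0.1) in the 72 libraries by labelled chamber, 1 point per library, coloured by group, with open points for the 17 libraries that read against a label. Filled ventricle points lie closest together for Irx4 (38.3 to 66.4 CPM) and spread most for Myl3 (4.32-fold from lowest to highest). Filled atrial points reach from near the ventricle level down to 8.04 CPM of Myl2 and 0 CPM of Irx4.

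Atria held transcripts of all 6 genes in nearly every library. Among libraries that read as labelled, these levels varied more than in ventricles. Over all 24 ventricle libraries as labelled, the ranges were wider, at 620 to 10905 CPM for Myl2 and 15.8 to 66.4 CPM for Irx4. With all labels kept, the log2 of highest over lowest for Irx5 was 3.36 in right atrium, 2.73 in left atrium and 3.0 in ventricles. Over the 18 right atrium libraries that read as labelled, Myl2 had a median of 1700 CPM and a range of 9.53 to 3607 CPM. Over the 18 left atrium libraries that read as labelled, its median was 2262 CPM and its range 8.04 to 5533 CPM. The highest of these 36 atrial libraries was thus 688-fold above the lowest for Myl2. The same fold was 249 for Myl3, 20.7 for Irx3, 11.8 for Hey2 and 6.28 for Irx5.

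Myl3 had medians of 1178 CPM in right atrium and 1523 CPM in left atrium. The medians of Irx3 were 21.3 and 24.2 CPM, those of Irx4 19.7 and 25.7 CPM, those of Irx5 5.01 and 6.09 CPM, and those of Hey2 2.84 and 2.79 CPM. In all 6 genes the atrial median was thus below the ventricle median.

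The lowest atrial libraries were low in the same genes. The naïve female left atrium library 20 held 8.04 CPM of Myl2, 41.7 CPM of Myl3, 1.93 CPM of Irx3, 2.42 CPM of Irx5 and 0 counts of Irx4, which allows up to 0.135 CPM. The low-dose female right atrium library 15 held 9.53 CPM of Myl2, 12.3 CPM of Myl3 and 1 count of Irx4 (0.0639 CPM, with an exact Poisson interval for counting error up to 0.356 CPM), but 11.6 CPM of Irx3. In these libraries Myl4 stood at 4912 and 3639 CPM. At the other end, 9 of the 36 atrial libraries exceeded the lowest ventricle library in Myl2, 17 in Myl3, 2 in Irx3, 5 in Irx4, 8 in Irx5 and 29 in Hey2. Among these libraries, which were kept by their Myl4 level, Irx3 and Irx4 thus overlapped least between chambers and Hey2 most. Over the labels of all 72 libraries this order was not kept. Of the 48 atrial libraries, 35 then exceeded the lowest ventricle library in Irx4, 37 in Hey2 and 38 in Myl3. The numbers were 40 for Myl2, 43 for Irx3 and 46 for Irx5.

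Across the 72 libraries, the 6 genes fell as the atrial gene Myl4 rose. Spearman's rho with Myl4 was -0.85 for Irx4, -0.832 for Irx3, -0.793 for Myl2, -0.763 for Irx5, -0.755 for Myl3 and -0.384 for Hey2. Within the 36 atrial libraries that read as labelled, it was -0.803 for Irx4, -0.721 for Irx3, -0.64 for Irx5, -0.626 for Myl3, -0.594 for Myl2 and -0.265 for Hey2. These correlations describe the libraries, and differences between chambers and in dissection may enter them. The part of ventricular tissue in atrial libraries was not tested, and fewer cells of a type cannot be told apart from less RNA per cell in tissue.

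**Figure D2:**
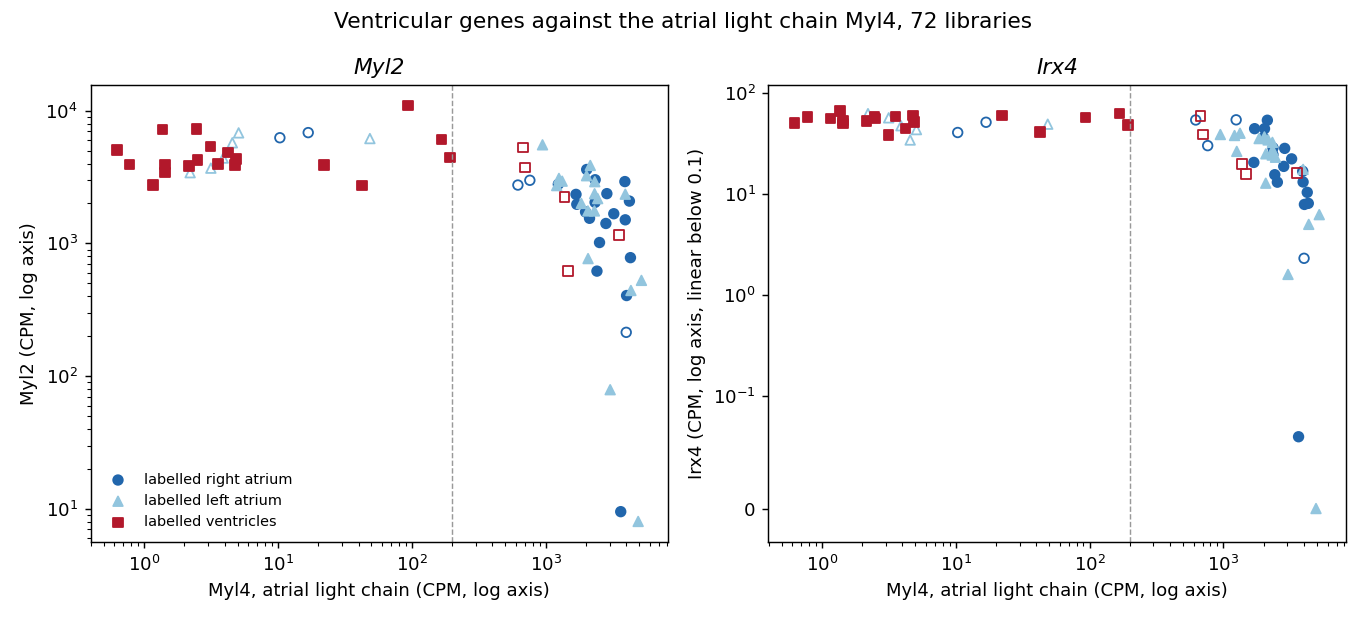
Myl2 (left) and Irx4 (right) in CPM against Myl4 in CPM, 1 point per library (n = 72), all axes logarithmic except the Irx4 axis below 0.1, with symbols for the labelled chamber, open symbols for libraries that read against a label and a dashed line at 200 CPM of Myl4. Open squares (labelled ventricles) stand to the right of the line with 620 to 5264 CPM of Myl2, and the open circles and triangles to its left are the 8 libraries labelled atrium that read against their chamber, while 4 open circles to its right read against their sex label alone.

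With all 72 libraries as labelled, each of the 6 genes was higher in ventricles than in right atrium, and 3 of the 6 were higher in ventricles than in left atrium. With calls made by edgeR's quasi-likelihood test (adjusted p under 0.05), the first contrast called 33.3% of 15054 genes and the second 19.7%. Against right atrium, the log2 fold change was 1.18 (SE 0.39, adjusted p = 0.0159) for Myl2 and 1.05 (SE 0.37, adjusted p = 0.0233) for Myl3. It was 1.08 (SE 0.35, adjusted p = 0.0128) for Irx4, 1.04 (SE 0.28, adjusted p = 0.00296) for Irx3 and 1.00 (SE 0.24, adjusted p = 0.00108) for Irx5. Hey2 had the smallest difference, at 0.50 (SE 0.19, adjusted p = 0.0342).

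Against left atrium, the genes that passed were Irx3 at 0.78 (SE 0.27, adjusted p = 0.0362), Irx5 at 0.63 (SE 0.24, adjusted p = 0.0497) and Hey2 at 0.58 (SE 0.19, adjusted p = 0.0242). The values of the other 3 were 0.79 for Irx4 (SE 0.34, adjusted p = 0.0926), 0.66 for Myl2 (SE 0.39, adjusted p = 0.223) and 0.57 for Myl3 (SE 0.37, adjusted p = 0.263). Without the 17 libraries, all 6 passed against both atria. Leaving libraries out by Myl4 widens these differences by construction, so that the added calls are descriptions. The log2 fold changes against right atrium were then 1.87 for Myl2, 1.85 for Myl3, 1.76 for Irx3, 1.71 for Irx4, 1.58 for Irx5 and 0.71 for Hey2, and 54.1% of all genes were called. Those against left atrium were 1.47, 1.51, 1.46, 1.48, 1.21 and 0.77 in the same order, with 51.5% of all genes called.

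Within libraries 49 to 72 alone, 0 of the 6 genes were called in either contrast by edgeR, and Myl2, Myl3, Irx3 and Irx5 stood lower in the libraries labelled ventricles than in those labelled left atrium (log2 fold changes from -0.11 to -0.26). Within libraries 1 to 48 without those that read against their labels, all 6 passed against left atrium. Between the libraries labelled left and right atrium, edgeR called 0 of 6 genes and 0% of all genes. Of the 6, 0 had an unadjusted p under 0.05, and DESeq2 called 0 of the 6 and 4 of all genes. This fit included the 8 libraries labelled atrium that read against their chamber. The check by Myl4 tells atria from ventricles and not left from right, so that left and right labels were not checked. These counts therefore cannot decide whether the atria differ from each other.

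**Figure D3:**
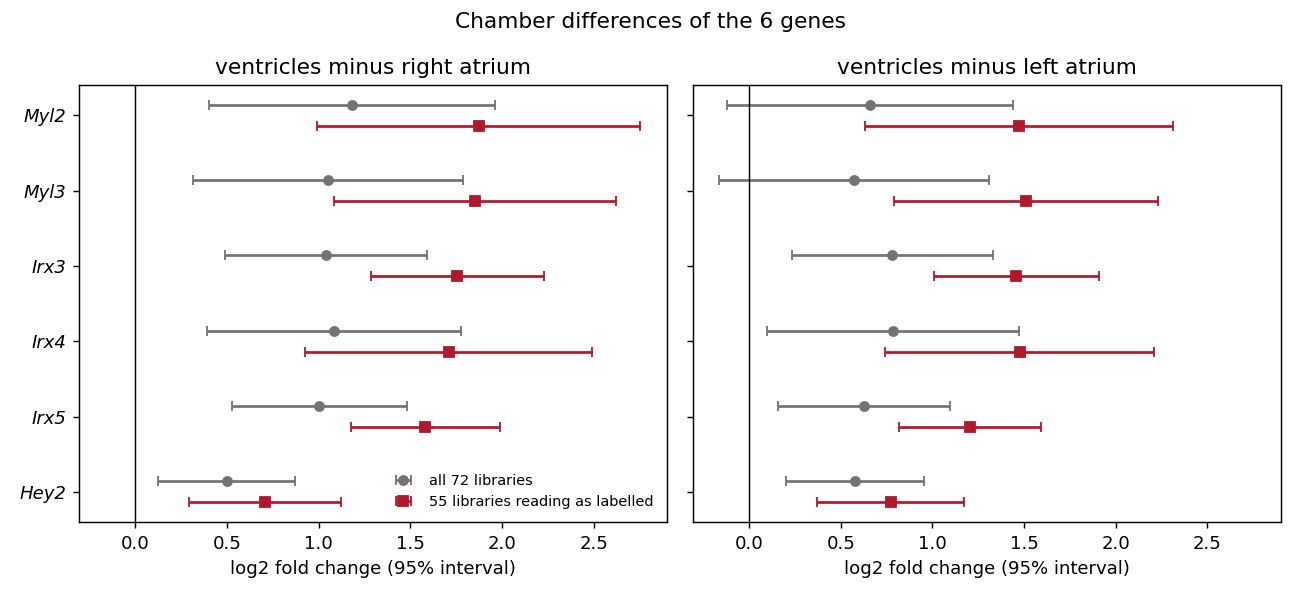
Log2 fold change with its 95% interval of each of the 6 genes between ventricles and right atrium (left) and between ventricles and left atrium (right), from all 72 libraries (grey circles) and from the 55 that read as labelled (red squares), by edgeR. Every estimate lies above 0, and Hey2 has the smallest difference from right atrium (0.50 and 0.71). The red estimates lie above the grey, and leaving libraries out by Myl4 widens the differences by construction.

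Of 24 listed relatives and partners of these genes, 23 could be tested between chambers. Against right atrium 17 passed, 7 higher and 10 lower in ventricles, and against left atrium 14 passed, 6 higher and 8 lower. Of all genes, 33.3% and 19.7% were called in these contrasts. The median log2 difference of the partners was 0.02 against right atrium and 0.10 against left atrium, where the median of all genes tested was -0.02 and -0.01. Among the Iroquois relatives, Irx1 was 2.07 higher on the log2 scale in ventricles than in right atrium (SE 0.42, adjusted p = 2.01e-04). Nppa, which encodes atrial natriuretic peptide, was lower by -4.35 against right atrium (adjusted p = 1.50e-05) and -3.84 against left atrium (adjusted p = 6.61e-04). The essential light chain gene Myl1 of fast skeletal muscle was lower in ventricles at -2.25 and -1.75, and Gja5, which encodes connexin 40 and is regulated by Irx3, at -1.99 and -1.80. The T-box gene Tbx5 was at -1.51 and -1.20 and Nr2f2, which directs atrial identity, at -1.13 and -0.99. Gja1, which encodes connexin 43, was higher in ventricles than in left atrium at 0.44 (SE 0.09, adjusted p = 0.00174).

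In female ventricles, Myl3 and Irx4 were higher after high-dose TCDD than in naïve mice, while the other 4 genes did not pass the test. This comparison called 2 of the 6 genes and 23.7% of 14006 genes tested, so that the share of members lay near that of all genes. The 3 naïve libraries held 1862, 2130 and 1777 CPM of Myl3, and the 3 high-dose libraries held 4272, 3451 and 4342 CPM. Every high-dose library was above every naïve library. The means were 1923 ± 184 CPM and 4022 ± 495 CPM (SD, n = 3 each), and edgeR gave a log2 fold change of 1.26 (SE 0.17, adjusted p = 7.84e-04), which is a 2.40-fold difference with a 95% interval of 1.85 to 3.10.

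Irx4 was at 48.4, 44.3 and 38.3 CPM in the naïve and at 58.4, 55.9 and 59.6 CPM in the high-dose female ventricles. These ranges did not overlap either, and the naïve libraries varied more. The means were 43.7 ± 5.09 and 58.0 ± 1.85 CPM (SD, n = 3 each). The log2 fold change was 0.60 (SE 0.14, adjusted p = 0.00844 by edgeR), or 1.52-fold with a 95% interval of 1.24 to 1.87.

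Myl2 was at 4449, 4845 and 5376 CPM in naïve and at 3966, 4236 and 3895 CPM in high-dose female ventricles. The high-dose libraries were lower in CPM without overlap, but Myl2 did not pass edgeR's test after TMM scaling. Irx3 was at 50.5, 57.7 and 35.5 CPM against 35.5, 43.6 and 34.9 CPM, and Irx5 at 15.0, 9.65 and 11.0 CPM against 13.7, 13.7 and 9.37 CPM. Hey2 was at 3.48, 5.82 and 1.98 CPM against 3.03, 2.63 and 3.41 CPM. The ranges of Irx3, Irx5 and Hey2 overlapped between the groups.

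At an adjusted p of 0.05 the Myl3 difference passed in the main test and in 15 other fits, with log2 fold changes from 1.06 to 1.41 and adjusted p from 2.66e-12 (DESeq2) to 0.0339, but at the stricter threshold of 0.0001 neither gene was called in the main test. The fit without libraries that read against their labels is counted among the 15, but it left out no library here and repeats the main test. Without library 35, the naïve library closest to the Myl4 limit, Myl3 was at 1.19 (adjusted p = 0.00597) and Irx4 at 0.63 (adjusted p = 0.0375). The Irx4 difference did not pass with library size as the only scaling (0.41, adjusted p = 0.110), a scaling that moved the median of all genes by -0.17, nor in libraries 1 to 48 alone (0.43, adjusted p = 0.0614) or with all 4 groups in 1 fit (0.60, adjusted p = 0.0611). With a trend in transcript length and GC content removed from each library, Irx4 was at 0.19 (adjusted p = 0.322) and Myl3 at 1.13 (adjusted p = 0.00136), while Irx3 passed as lower at -0.54 (adjusted p = 0.0235) and 12.8% of all genes were called.

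Other cardiac genes moved in the same female ventricles. The summed level of 4 cardiomyocyte markers was 20495 to 21899 CPM in the naïve and 29468 to 39970 CPM in the high-dose libraries. Of these markers, Tnnt2, Tnni3 and Actc1, which encode sarcomere proteins, were higher without overlap, and Ryr2, which encodes the calcium release channel, was lower without overlap (1823 to 2460 against 3253 to 3578 CPM). Per 1000 CPM of the 4 markers, Myl3 was at 107 to 123 CPM in high-dose against 85.3 to 97.2 CPM in naïve libraries, Irx4 at 1.46 to 1.90 against 1.84 to 2.36 CPM, and Myl2 at 99.2 to 144 against 217 to 258 CPM. On this scale, Myl3 remained higher without overlap, Irx4 was no longer higher, and Myl2 was lower. Of the lists for other cells, skeletal muscle was lower without overlap (4.74 to 12.1 against 16.0 to 23.8 CPM over 4 genes), and the sums for adipocytes, blood, T cells, smooth muscle, fibroblasts, endothelium and the 4 atrial genes overlapped between the groups. Single genes of these lists did not all overlap. Myh11 (59.2 to 68.2 against 37.1 to 43.1 CPM) and Tagln (40.7 to 43.0 against 19.5 to 28.4 CPM) of smooth muscle and Col1a2 of fibroblasts (129 to 166 against 91.4 to 115 CPM) were higher in the high-dose libraries. Dcn of fibroblasts (600.2 to 713 against 745 to 1332 CPM) and the atrial genes Nppa (27.0 to 41.5 against 51.3 to 244 CPM) and Sln (0 to 0.0597 against 0.16 to 34.4 CPM) were lower. The lung genes were at 0 to 0.358 CPM. The part of these markers in the Myl3 and Irx4 differences was not tested.

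Of the listed partners, 21 could be tested in this comparison and 6 passed, 3 in each direction, beside 23.7% of all genes. Their median log2 difference was 0.07 beside 0.01 over all genes. Those higher were the homeobox gene Nkx2-5 (0.80, adjusted p = 0.00147) and the myosin heavy chain genes Myh6 (1.01, adjusted p = 0.00433) and Myh7 (0.85, adjusted p = 0.00827). Those lower were Nr2f2 (-0.98, adjusted p = 0.00394), the myosin phosphatase subunit gene Ppp1r12b (-0.51, adjusted p = 0.0183) and Gja1 (-0.48, adjusted p = 0.0245). The Iroquois relatives Irx1 and Irx2 did not pass.

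**Figure D4:**
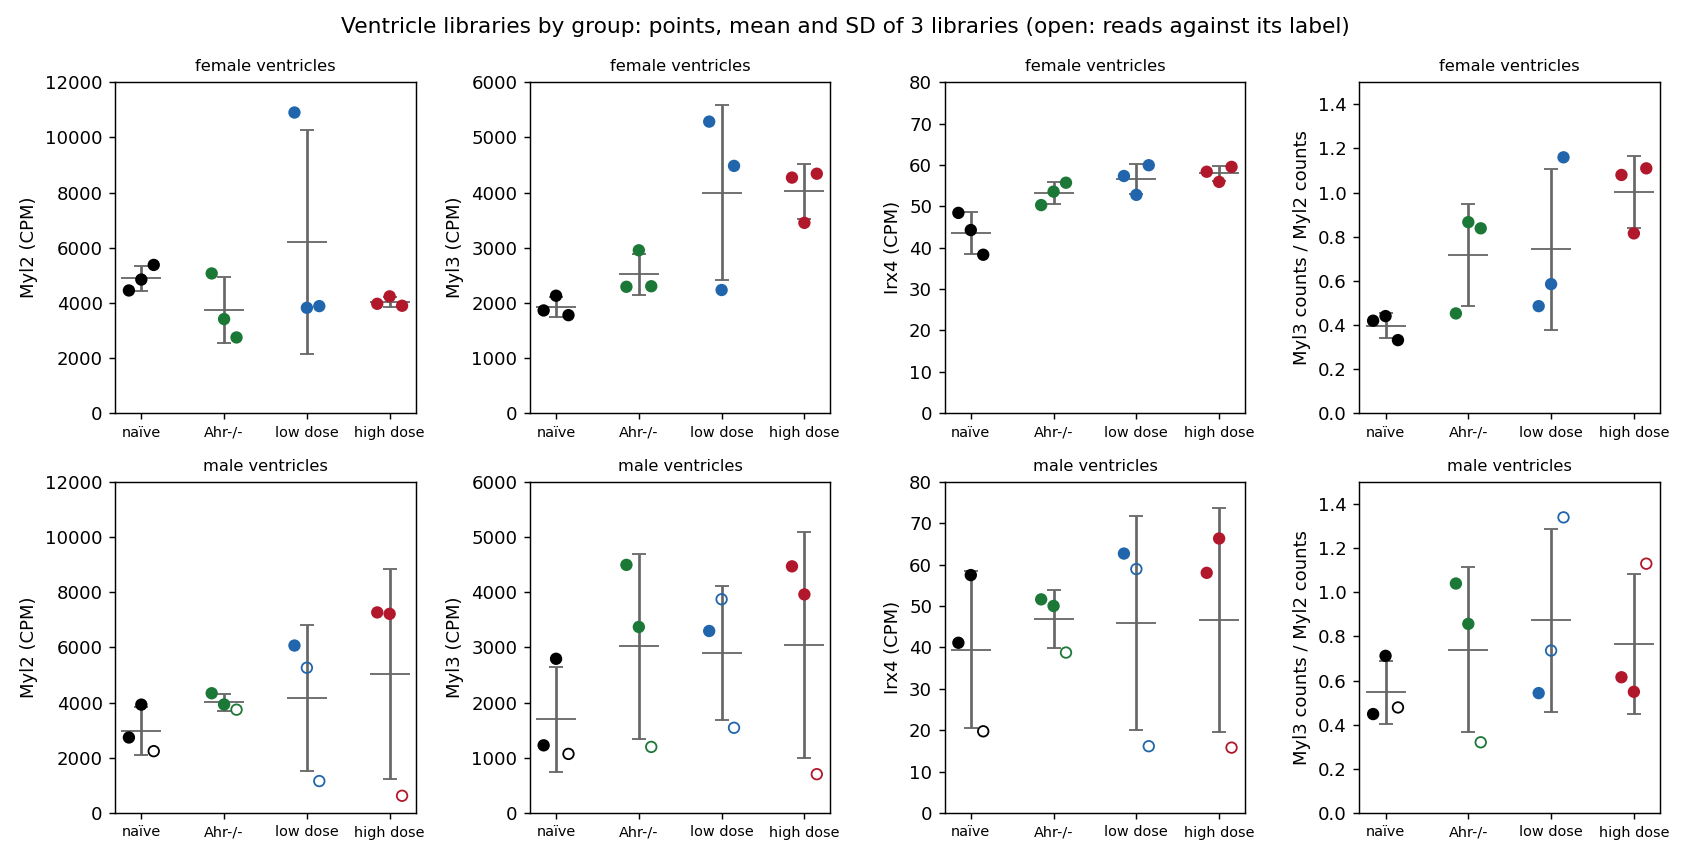
Myl2, Myl3 and Irx4 in CPM and the ratio of Myl3 to Myl2 counts in ventricle libraries of females (top) and males (bottom), by group, with 1 point per library, horizontal bars for the mean and error bars for the SD of 3 libraries, open points for libraries that read against a label. In females the 3 high-dose points of Myl3 (3451 to 4342 CPM) stand above the naïve points (1777 to 2130 CPM), and in males the lowest Irx4 point of each group (15.8 to 38.8 CPM) is open, while a further open low-dose point stands at 59.0 CPM.

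Low-dose female ventricles had higher means of Myl3 and Irx4 than naïve ones, but neither passed the test over all genes. Myl3 was at 5287, 2233 and 4484 CPM and Irx4 at 57.3, 52.8 and 60.0 CPM. All 3 low-dose libraries were above the highest naïve library in both genes, and so was their cardiomyocyte marker sum (25507 to 35174 CPM). Per 1000 CPM of these markers, Myl3 was at 87.5 to 170 CPM and Irx4 at 1.70 to 2.07 CPM, both overlapping the naïve range. The log2 fold changes were 1.26 for Myl3 (SE 0.32, adjusted p = 0.145) and 0.57 for Irx4 (SE 0.19, adjusted p = 0.176). EdgeR called 0 of the 6 genes and 0% of all genes here. An unadjusted p under 0.05 was found for 2 of the 6, beside 2480 of 13966 genes tested. DESeq2 called 1 of the 6, Myl3 (adjusted p = 0.00469), beside 3.68% of all genes. Without library 48, the low-dose library with least Myl3, Myl3 passed at 1.59 (adjusted p = 0.0442), beside 1.37% of all genes. Myl2 was at 10905, 3820 and 3882 CPM, so that 1 library, 47, was far above the naïve range and the others below it. The low- and high-dose comparisons share the naïve libraries.

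Ahr-/- female ventricles held 2291, 2953 and 2301 CPM of Myl3, all above the highest naïve library. Irx4 was at 50.3, 53.6 and 55.7 CPM, also above the naïve range. The cardiomyocyte marker sum was above it as well (24603 to 31033 CPM), and per 1000 CPM of these markers Myl3 (74.2 to 120 CPM) and Irx4 (1.8 to 2.18 CPM) overlapped the naïve libraries. The log2 fold changes were 0.46 for Myl3 (SE 0.17, adjusted p = 0.515) and 0.37 for Irx4 (SE 0.15, adjusted p = 0.515). Neither passed. Here edgeR called 0 of the 6 genes and 0.0216% of all genes, and DESeq2 called 0 of the 6. An unadjusted p under 0.05 was found for 2 of the 6, beside 1315 of 13920 genes tested. Myl2 was at 5067, 3412 and 2745 CPM, which overlapped the naïve range.

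The ratio of Myl3 to Myl2 counts does not depend on how libraries are scaled. In naïve female ventricles it was 0.419, 0.440 and 0.331. It was 1.08, 0.815 and 1.11 in high-dose, 0.485, 0.585 and 1.16 in low-dose, and 0.452, 0.866 and 0.838 in Ahr-/- female ventricles. Every library of the other 3 groups was thus above every naïve one, with means of 0.396 ± 0.0579 in naïve, 1.00 ± 0.163 in high-dose, 0.742 ± 0.362 in low-dose and 0.719 ± 0.231 in Ahr-/- females (SD, n = 3 each). The exact permutation test (two-sided) gave p = 0.1 for each, which is the smallest p that 3 against 3 libraries allow, and 0.2 after Benjamini-Hochberg adjustment over 6 comparisons. In males, where 1 or 2 of the 3 libraries of each group read against their labels, the exact p was 0.4 for high-dose, 0.2 for low-dose and 0.5 for Ahr-/- libraries (adjusted 0.48, 0.3 and 0.5). The median ratio over libraries that read as labelled was 0.615 in ventricles, 0.611 in right atrium and 0.682 in left atrium. The 3 comparisons of females share the naïve libraries. High ratios were not particular to female ventricles. Over all chambers and both sexes, libraries 61 to 72, all TCDD-exposed, were at 0.832 to 1.68. Libraries 49 to 60, naïve or Ahr-/-, were at 0.32 to 0.838. In libraries 1 to 48 the ratio was 0.459 to 1.29 in TCDD-exposed and 0.419 to 5.19 in the other groups. The part of library number in the ratio was not tested.

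Male ventricles varied more, and in them edgeR called 0 of the 6 genes and 0% of all genes against naïve mice in each of the 3 comparisons, with 0 of the 6 at an unadjusted p under 0.05 and 0 of the 6 by DESeq2. Over all genes, such a p was found for 600 of 14198 in Ahr-/-, 1302 of 14162 in high-dose and 1952 of 14031 in low-dose males. Myl2 was at 2734, 3927 and 2238 CPM in naïve and at 7272, 7220 and 620 CPM in high-dose males. The lowest library of each, 53 and 65, read against its chamber and sex labels. With these 2 left out, 2 libraries a group remained, and Myl2 was higher after high-dose TCDD at 1.16 (SE 0.28, adjusted p = 0.0241 by edgeR, 15.9% of all genes called).

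Myl3 was at 1225, 2795 and 1070 CPM in naïve and at 4472, 3962 and 701 CPM in high-dose males, and Irx4 at 41.1, 57.5 and 19.7 CPM against 58.0, 66.4 and 15.8 CPM. In both genes the high-dose libraries 41 and 42 were above all naïve libraries and library 65 below them. Low-dose males had 3299, 3875 and 1543 CPM of Myl3, and Ahr-/- males 4498, 3372 and 1196 CPM. The last value of each, and the second of the low-dose males, are from libraries that read against a label.

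With both sexes in 1 model, Myl3 was higher after low-dose TCDD and no other member passed. Its log2 fold change was 1.03 (SE 0.31, adjusted p = 0.0462 by edgeR), and 1 of the 6 genes and 12.5% of all genes were called. The call was lost without the libraries that read against their labels (1.09, adjusted p = 0.0564), with library size as the only scaling (0.92, adjusted p = 0.0568), in libraries 1 to 48 alone (0.93, adjusted p = 0.0648), with the length and GC trend removed (0.64, adjusted p = 0.301) and when any of libraries 33, 35, 36, 45, 46, 47, 53, 54 or 72 was left out (0.91 to 1.03, adjusted p = 0.0652 to 0.119). After high-dose TCDD, edgeR called 0 of the 6 genes beside 12.5% of all genes. Of the 6, Myl3 alone had an unadjusted p under 0.05 (1.09, SE 0.41, adjusted p = 0.0992), beside 4226 of 14756 genes tested. DESeq2 called Myl3 (adjusted p = 0.0246) beside 19.1% of all genes. Without library 65, Myl3 passed at 1.32 (adjusted p = 0.00511), beside 18.9% of all genes. Without all libraries that read against their labels, it passed at 1.18 (adjusted p = 0.00229) together with Irx4 at 0.49 (adjusted p = 0.0171), beside 24.1% of all genes. For Ahr-/-, 0 of the 6 genes and 0.0339% of all genes were called, and DESeq2 called 0 of the 6. An unadjusted p under 0.05 was found for 0 of the 6, beside 1842 of 14738 genes tested. Among the partners, Nkx2-5 was higher (0.74, adjusted p = 0.0190) and Ppp1r12b lower (-0.95, adjusted p = 0.0439) after the low dose, and Ppp1r12b was lower (-0.87, adjusted p = 0.0454) after the high dose.

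A difference between the sexes in these effects was tested with an interaction term, which called 0 of the 6 genes and 0% of all genes for Ahr-/-, low dose and high dose by edgeR, with 0 of the 6 at an unadjusted p under 0.05 and 0 of the 6 by DESeq2. Over all genes, such a p was found for 404 of 14738 for Ahr-/-, 135 of 14536 for low dose and 669 of 14756 for high dose. Without the libraries that read against their labels, Myl2 passed for high dose with an interaction of -1.31 (female minus male, SE 0.29, adjusted p = 0.0144), beside 8.03% of all genes. It also passed without library 65 (-1.49, adjusted p = 0.0429, 3.23% of all genes) and in libraries 1 to 48 alone (-1.20, adjusted p = 0.0465, 3.6% of all genes).

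In the atria, edgeR called 0 of the 6 genes and 0% of all genes in each of the 12 comparisons with naïve mice. Of the 72 tests of a member in them, 10 had an unadjusted p under 0.05, between 0 and 3 in a comparison, and DESeq2 called 0 of the 6 genes in each. Over all genes, such a p was found for 235 of 14686 in low-dose male left atrium and up to 2613 of 14885 in low-dose female left atrium. In low-dose male right atrium, where 3 of the 6 had it, so did 657 of 14892 genes. In male right atrium, where all 12 libraries read as labelled, the naïve libraries held 15.5, 22.3 and 13.2 CPM of Irx4. The low-dose libraries held 53.7, 28.3 and 36.1 CPM, all higher, and the high-dose libraries 18.8, 28.6 and 44.3 CPM, which overlapped the naïve range. The log2 fold changes of Irx4 were 1.27 (SE 0.30, adjusted p = 0.941) after the low and 0.98 (SE 0.38, adjusted p = 0.892) after the high dose. Irx3 was at 0.67 (adjusted p = 0.941) and 0.77 (adjusted p = 0.892), and Myl3 at 0.76 (adjusted p = 0.941) after the low dose. Myl2 was at 0.91 (adjusted p = 0.821) in Ahr-/- male right atrium.

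In female left atrium, Hey2 was at 1.64 (SE 0.46, adjusted p = 0.359) and Irx5 at 1.02 (SE 0.44, adjusted p = 0.363) in Ahr-/- against naïve libraries. The Ahr-/- libraries held 6.97, 4.49 and 3.47 CPM of Hey2 and the naïve ones 1.96, 0.898 and 2.16 CPM. The first 2 Ahr-/- libraries had 48.7 and 5.09 CPM of Myl4 and read against their chamber label, and the second naïve library is the one with 0 counts of Irx4. In libraries 1 to 48 alone, which leave just these Ahr-/- libraries, both genes passed (2.16, adjusted p = 0.0220 for Hey2, and 1.65, adjusted p = 0.0354 for Irx5). The share of all genes called in that fit was 18.4%. Without the libraries that read against their labels, a single Ahr-/- library remained, whose spread is assumed to be that of the naïve libraries, and the values were 1.08 and 0.60. In female right atrium, Hey2 was at -1.45 (adjusted p = 0.817) in Ahr-/- and at -0.99 (adjusted p = 0.974) in low-dose libraries. Of the 3 naïve libraries there, 1 read against its chamber label and 1 against its sex label.

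The genes most like each member were sought over the 72 libraries by Spearman's rho of log2 CPM among 13951 genes. Myl3 was most like Macrod1 (0.947), Fabp3 (0.944) and Ckm (0.941), the latter 2 encoding the fatty acid binding protein and the creatine kinase of muscle. Myl2 was most like Ech1 (0.924), Rpl3l (0.923) and A930016O22Rik (0.917). Irx4 was most like Hadha (0.928), Mybpc3 (0.904) and Rpl3l (0.902), and Irx3 most like Smyd2 (0.908), Ldhb (0.905) and Idh2 (0.903). Irx5 was most like Irx3 (0.874), with which it shares some stretches of coding sequence, Mybpc3 (0.87) and Cavin4 (0.838). Hey2 stood apart, with no gene above Qsox2 (0.653), followed by Limd1 (0.6) and Grpel2 (0.589). Between members, rho was 0.693 to 0.897 among the other 5, highest for Irx4 with Myl3, and 0.137 to 0.414 for Hey2 with each of them. These values have n = 72 libraries that differ in chamber and depth, and such differences may enter them.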

How the data were processed

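The deposited values are unnormalized read counts per gene, made by the authors from TruSeq poly-A libraries with 50-cycle single reads, CASAVA 1.8, alignment to mm10 with TopHat (its version is not given in the sources used here) and counting on coding regions with Bioconductor packages. Groups were taken from the labels. Each comparison was fitted on its own with edgeR 4.0.16 in R 4.3.3 (TMM scaling, a filterByExpr filter at count 10 and total 15, robust quasi-likelihood F test, Benjamini-Hochberg adjustment over all genes tested, calls at 0.05): 18 against naïve mice, 3 in ventricles over both sexes with sex as a covariate, 3 interactions and 3 between chambers, with libraries taken as independent, although chambers share hearts. Mice of a group may also share a dam, and dams were not a term in any fit. P-values measure the spread between libraries and not between dams. Alternatives included RLE size factors, library size only, no filter, DESeq2 1.42.0, an adjusted p of 0.0001, a library series term, all 4 groups in 1 fit, subsets of libraries and each library left out in turn. Chamber subsets combined with the label check and the removal of a trend in transcript length and GC content (natural splines with 5 degrees of freedom each, for about 95% of genes) were chosen after the data were seen, as was the light chain ratio. CPM are counts scaled to a library total of 1000000. A log2 fold change of a member against naïve mice is given where its unadjusted p was under 0.05, and for all members between chambers. Partners were named when called, at most 6 per comparison by smallest p. For likeness, a prior count of 2 and a mean CPM of at least 1 were used. Members and lists were chosen with earlier results of these data known. Methods were tested on simulated data. Tables were made with scipy 1.17.1, numpy 2.4.6 and pandas 2.3.3 in Python 3.11.15, and plots with matplotlib 3.10.9.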

Additional observations from a re-analysis of the deposited data

How the results depend on the processing

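Between chambers, the values of the 6 genes depended most on which libraries entered. In libraries 49 to 72 alone, 0 genes were called against either atrium, the log2 differences from left atrium turned to -0.11 for Myl2, -0.22 for Myl3, -0.15 for Irx3 and -0.26 for Irx5 (0.94 for Hey2, no longer past the threshold), and those from right atrium were 0.76 for Myl2, 0.63 for Myl3, 0.46 for Irx3, 0.58 for Irx4, 0.35 for Irx5 and 0.60 for Hey2, none past it. With naïve libraries only, 0 genes were called against either atrium, at 0.84, 0.48, 1.03, 0.96, 1.16 and 0.054 against right atrium in the same order and at 1.24 for Irx3, 0.92 for Irx5 and 0.73 for Hey2 against left atrium, while left minus right atrium turned to -0.21 for Irx3 and -0.16 for Myl3. Naïve libraries that read as labelled gave 2 calls against right atrium, with 2.11 for Myl2, 1.62 for Myl3, 1.88 for Irx4 and 0.81 for Hey2 no longer past the threshold, and 0.87 for Hey2 against left atrium. Female libraries alone gave 1 call against right atrium, with 1.09 for Myl2, 0.91 for Myl3, 0.92 for Irx3, 1.09 for Irx4 and 0.56 for Hey2 no longer past it, and 0.71 for Hey2 against left atrium, and left minus right atrium turned to -0.24 for Irx3, -0.070 for Irx4, -0.10 for Irx5 and -0.14 for Myl3. Male libraries alone gave 2 calls against right atrium and 0 against left atrium, with 1.20 for Myl3, 1.07 for Irx4, 1.12 for Irx5 and 0.45 for Hey2 against right and 0.48 for Irx3, 0.32 for Irx5 and 0.47 for Hey2 against left atrium no longer past it. In libraries 1 to 48, Hey2 lost its calls (0.50 against right, 0.49 against left atrium), Irx4 (1.27) and Myl3 (1.23) passed against left atrium, and left minus right atrium of Hey2 turned to 0.0059. Without the libraries that read against their labels, 6 genes were called against left atrium, newly Myl2 (1.47), Myl3 (1.51) and Irx4 (1.48), and in libraries 1 to 48 without them also 6 (1.62, 1.57 and 1.502). Library size as the only scaling moved the median of all genes by -0.21 against right and -0.16 against left atrium and lost Hey2 (0.32 and 0.43), and no filter lost Irx5 against left atrium (0.63). With these exceptions the direction was kept in each alternative run. At an adjusted p of 0.0001, 0 of the 6 genes were called in the main edgeR test of any comparison, against 6 and 3 between chambers, 2 in high-dose female ventricles and 1 for the low dose over both sexes at 0.05. By DESeq2, Myl3 in high-dose female ventricles was below this threshold (adjusted p = 2.66e-12).

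Against naïve mice, high-dose female ventricles gave 1 call in place of 2 with library size only, in libraries 1 to 48 and with all 4 groups in 1 fit. DESeq2 gave 1 call in place of 0 for low-dose females and for the high dose over both sexes. For the low dose over both sexes, 0 genes were called with library size only, without the libraries that read against their labels, in libraries 1 to 48 and with the length and GC trend removed, and 0 to 1 when each library was left out. For the high dose over both sexes, 2 genes were called without the libraries that read against their labels, 1 in libraries 1 to 48, and 0 to 1 with each library left out. High-dose male ventricles and the high-dose interaction gave 1 call each without the libraries that read against their labels and in libraries 1 to 48, and with each library left out the interaction gave 0 to 1, as did low-dose female ventricles. Ahr-/- female left atrium gave 2 calls in libraries 1 to 48. Leaving out the libraries that read against their labels left 1 against 1 in high-dose female right atrium, which was not fitted. The groups are different mice, and the labels do not tell which chamber libraries share a heart, so that no paired analysis was possible. The causes of these changes were not tested, and the subsets also held fewer libraries. Depth limits Hey2 and the lowest atrial Irx4 counts most.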
